A study of Mus musculus with 3 samples.

Results

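The numbered Zfp genes of the mouse were followed in erythroblasts, the nucleated red-cell precursors, with and without Drosha. Members were genes whose symbol is Zfp followed by digits alone and whose estimated read counts summed to 50 or more over the 3 libraries. Of 15058 genes listed, 327 carried such a symbol and 247 of these reached 50 counts. The other 80 summed to between 0.28 and 49 counts, with a median of 18.5, and are not described further. Zfp286, Zfp771 and Zfp784 lay just inside the limit with 51 counts each, and Zfp94, Zfp959 and Zfp711 just outside it with 49, 47.61 and 45 counts.

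RNA sequencing covered 3 libraries of total RNA from E10.5 peripheral blood, each pooled from 5 embryos. The library called Drosha-null here held CD71+ Ter119-high cells of Drosha fl/fl;cdh5-cre+ embryos, with Drosha labelled as null. The library called Ter119-low held CD71+ Ter119-low cells of embryos of that genotype, with Drosha labelled to be as plentiful as in wild type. The control held CD71+ Ter119-high cells of embryos that were Drosha fl/fl or Drosha fl/+, labelled wild type for Drosha. All groups therefore carried at least 1 floxed Drosha allele. The Cre is driven from the promoter of Cdh5, the endothelial cadherin gene, so recombination starts in endothelium and reaches the blood cells that descend from it. Ter119 marks maturing red cells, so Ter119-low differs from the control in gate and genotype together. There was 1 library in each group and no replicate, so no difference below has a replicate check or a p-value.

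Zinc fingers of the C2H2 kind are short folds that hold a zinc ion between a pair of cysteines and a pair of histidines, and strings of them read DNA sequence. Many mouse Zfp proteins also carry a KRAB box, which recruits the corepressor Trim28 and the histone methyltransferase Setdb1 to silence chromatin, most famously at endogenous retroviruses. Others act as activators, or bind RNA or protein rather than DNA. Drosha, the other subject of the study, cuts microRNA precursors out of primary transcripts in the nucleus.

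Of the 247 members, 246 matched a GENCODE M21 transcript, and a search for the C2H2 finger pattern found it in the predicted protein of all but 7 of these, with a median of 10 fingers per protein and a maximum of 36 in Zfp142. The 7 members without it were Zfp36, Zfp259, Zfp330, Zfp503, Zfp703, Zfp781 and Zfp839, so the name is shared by proteins of other finger types such as Zfp36. A KRAB box pattern was found in 121 members and not in 125. Chromosome 7 held 57 members and chromosome 17 held 27. In 11 cases the reference now uses another symbol, among them Zbtb18 for Zfp238 and Zbtb14 for Zfp161.

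Copies that are close in sequence set a limit on what short reads can tell apart. Among the members, 41 pairs shared at least 50 identical coding bases, 39 of them on the same chromosome, and the pairs involved 50 members. The longest identical run, 507 coding bases in Zfp97 and Zfp960, is not printed because of its length. Zfp808 and Zfp934, both on chromosome 13, share the next longest, of 200 coding bases. They are shown because the authors' counts for both are fractional (GENCODE M21 transcripts, coding strand):
Zfp808 and Zfp934: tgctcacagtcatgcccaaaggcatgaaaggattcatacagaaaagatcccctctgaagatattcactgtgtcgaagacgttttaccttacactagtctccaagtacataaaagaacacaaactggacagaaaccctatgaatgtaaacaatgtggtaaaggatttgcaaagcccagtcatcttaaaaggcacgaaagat
Fractional counts were deposited for 49 members. How the authors arrived at them is not stated, and reads divided between related genes are one way, so the values of these members are treated as uncertain. The transcripts of these 49 had a median of 7.53% of their 50-base windows also present in a transcript of another gene, member or not, against 0% for the 198 members with whole counts.

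The promoters of 4 members are printed because they are those with the clearest difference between the Drosha-null and control libraries among members with an entry in the RefSeq promoter table, the first pair higher and the second pair lower in Drosha-null cells. Each runs from 250 bases before to 50 bases after the annotated start (RefSeq, GRCm38.p6). Capitals mark AGATAA, the kind of motif that GATA factors such as Gata1 bind, and CCACCC, the CACC box bound by Klf1, either of them searched on both strands.
Zfp238 (chr1:177442101-177442400, plus strand): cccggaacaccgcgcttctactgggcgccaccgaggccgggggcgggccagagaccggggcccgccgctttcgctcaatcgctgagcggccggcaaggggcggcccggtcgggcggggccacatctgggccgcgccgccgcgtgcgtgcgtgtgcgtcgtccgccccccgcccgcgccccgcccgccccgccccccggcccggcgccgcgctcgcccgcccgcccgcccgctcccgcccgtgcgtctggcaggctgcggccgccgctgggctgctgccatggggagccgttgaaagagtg
Zfp367 (chr13:64153150-64153449, minus strand): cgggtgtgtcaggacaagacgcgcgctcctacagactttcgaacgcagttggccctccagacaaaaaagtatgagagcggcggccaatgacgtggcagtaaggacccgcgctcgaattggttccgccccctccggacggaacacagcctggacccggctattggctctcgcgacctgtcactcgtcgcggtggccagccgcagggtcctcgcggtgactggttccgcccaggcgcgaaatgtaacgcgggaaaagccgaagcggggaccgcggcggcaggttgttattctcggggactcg
Zfp787 (chr7:6155916-6156215, minus strand): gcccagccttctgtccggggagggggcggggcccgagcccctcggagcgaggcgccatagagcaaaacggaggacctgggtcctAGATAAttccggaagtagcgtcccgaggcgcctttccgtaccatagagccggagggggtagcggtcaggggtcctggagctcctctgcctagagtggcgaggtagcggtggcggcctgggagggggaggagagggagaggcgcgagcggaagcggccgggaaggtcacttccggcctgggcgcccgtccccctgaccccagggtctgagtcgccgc
Zfp180 (chr7:24081647-24081946, plus strand): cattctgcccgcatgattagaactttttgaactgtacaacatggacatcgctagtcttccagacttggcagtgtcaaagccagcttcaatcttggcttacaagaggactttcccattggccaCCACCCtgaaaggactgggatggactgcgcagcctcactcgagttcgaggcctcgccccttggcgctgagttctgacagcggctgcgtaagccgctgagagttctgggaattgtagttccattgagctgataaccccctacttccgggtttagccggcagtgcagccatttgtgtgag
The Zfp238 and Zfp367 windows hold neither motif, and contain 51 and 36 CG dinucleotides. One AGATAA lies in the Zfp787 window, which has 27 CG dinucleotides, and one CCACCC in the Zfp180 window, which has 12. Of the 200 members with a promoter entry, 7.5% held AGATAA and 31% held CCACCC. Over 7711 genes with 50 or more counts those shares were 5.9% and 35.4%, and over all 27025 promoters they were 11.4% and 30.9%. The median window held 16 CG dinucleotides in members, 22 in genes with 50 or more counts and 7 in all promoters.

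Summed over genes, the libraries held 9325814 estimated counts for Drosha-null, 9418474 for Ter119-low and 9497425 for control. Drosha itself had 122 counts in Drosha-null, 244 in Ter119-low and 324 in control cells. After scaling by TMM, which assumes that most genes do not differ, its log2 ratio was −1.81 in Drosha-null against control (95% counting interval −2.13 to −1.51) and −0.49 in Ter119-low against control (−0.74 to −0.25). Reads remained in the library labelled null, and which exons they cover is not given in the sources used here. All 10 erythroid markers were present, and together they took 16.9% of counts in Drosha-null, 22.8% in Ter119-low and 24.6% in control cells. Marker counts of other cells were low but uneven. The 8 cardiac muscle markers summed to 323, 59 and 75 counts in Drosha-null, Ter119-low and control, led by Ttn with 181, 42 and 37, while Myh6 had 0, 0 and 2. The 10 endothelial markers summed to 263, 101 and 93 counts. Among them Vwf had 38, 26 and 15, Pecam1 55, 4 and 3, and Kdr 26, 9 and 22. Mesenchyme markers, 5 in all, summed to 127, 68 and 67 counts. Among them Pdgfra had 45, 15 and 14, and Col3a1 had 21, 29 and 22. Macrophage markers, 7 in all, summed to 53, 24 and 44, with no C1qa or Ptprc listed. The 6 megakaryocyte markers summed to 138, 119 and 98 and the 5 blood progenitor markers to 46, 30 and 26. The part of these other cells in the differences below was not tested, and in bulk RNA fewer cells of a type and less RNA per cell cannot be told apart.

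Most Zfp genes were expressed at low levels in these erythroblasts. Together the 247 members made up 0.424% of counts in Drosha-null, 0.358% in Ter119-low and 0.335% in control cells. Their mean level over the libraries had a median of 2.12 FPKM (the authors' fragment counts per gene length and library size), against 6.52 FPKM for all genes with 50 or more counts. Only 13 members averaged 10 FPKM or more, and 52 averaged under 1 FPKM. These levels follow in part from the count limit in the rule and are given as a description.

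**Figure D1:**
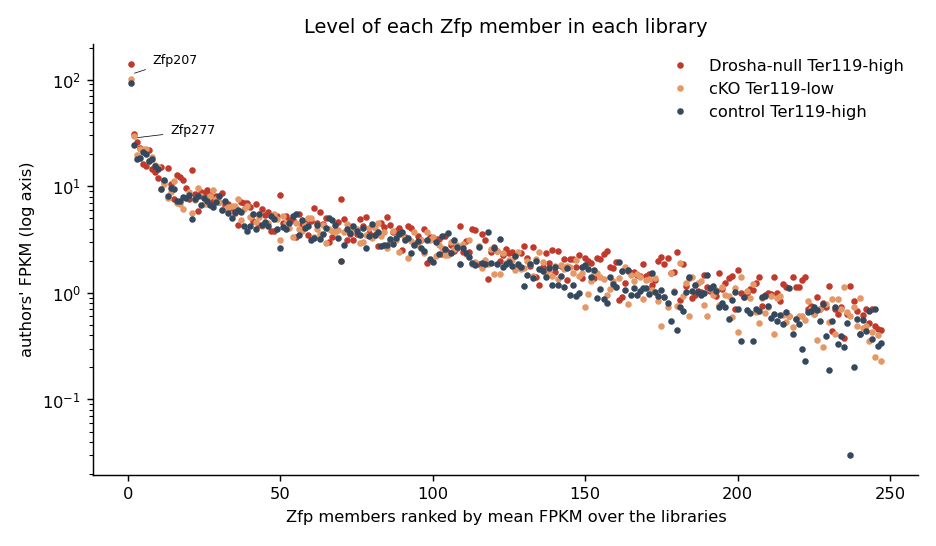
Level of each of the 247 members in FPKM (log axis) by its rank in mean level, with 1 point for each library. Zfp207 stood alone at the top with a mean of 112 FPKM, and the single low point at the right is Zfp449, with 0.03 FPKM in control cells.

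Zfp207 (BuGZ), which loads the checkpoint protein Bub3 onto kinetochores in mitosis, was the most abundant member. Its level was 141.37 FPKM in Drosha-null, 100.81 FPKM in Ter119-low and 93.13 FPKM in control cells. Its counts were 3010, 2209 and 2031 in that order, a log2 ratio of 0.16 in Drosha-null against control (0.08 to 0.24). Next came Zfp277, a partner of Polycomb proteins at the Ink4a locus in mouse cells, at 30.88, 29.68 and 24.27 FPKM in Drosha-null, Ter119-low and control. Zfp91, a ubiquitin ligase of the NF-kB pathway, stood at 25.71, 19.74 and 18.05 FPKM, and its log2 ratio in Drosha-null against control was 0.07 (−0.05 to 0.20). Zfp488 averaged 21.2 FPKM, but its counts are fractional. The remaining 6 of the 10 most abundant members were Zfp330, Zfp414, Zfp871, Zfp106, Zfp568 and Zfp664, with means of 19.8, 19.3, 18.8, 17, 15 and 13.9 FPKM. None of these 10 reached a ratio of 2 in any comparison.

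Drosha-null cells were set against control cells of the same Ter119-high gate to ask what the loss of Drosha goes with. Most Zfp genes sat near the control level. The median log2 ratio of the members was −0.09, with an interquartile range of −0.48 to 0.33, and 61.1% of them lay within 0.5 of 0. For the other 9273 genes with 50 or more counts the median was −0.04 and 53.9% lay within 0.5. A member was called when its ratio reached 2 in either direction and its counting interval excluded 1. By that rule 12 members (4.86%) were higher and 11 (4.45%) lower in Drosha-null cells, against 10.6% called higher and 6.97% called lower among the 9273 other genes. All 247 members reached the minimum for testing, 1 CPM (counts per scaled library size) in either library. The intervals cover counting error only.

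The split depends on the scaling. When libraries are scaled by their total counts, the median log2 ratio of all genes tested in Drosha-null against control moves to 0.43, against −0.02 with TMM, and 34 members are called higher and 2 lower. These are 13.8% and 0.81% of members, against 20.7% and 2.11% of the other genes with 50 or more counts. The 12 members called higher with TMM are all among the 34, and the 2 still lower are Zfp787 and Zfp566. Relative to the median of all genes with 50 or more counts, the members' median was −0.05 under both scalings. A change of scaling moves every log2 ratio by the same amount, here upward. The value of −0.05 and the overlap of the 12 with the 34 were therefore fixed in advance and give no check.

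**Figure D2:**
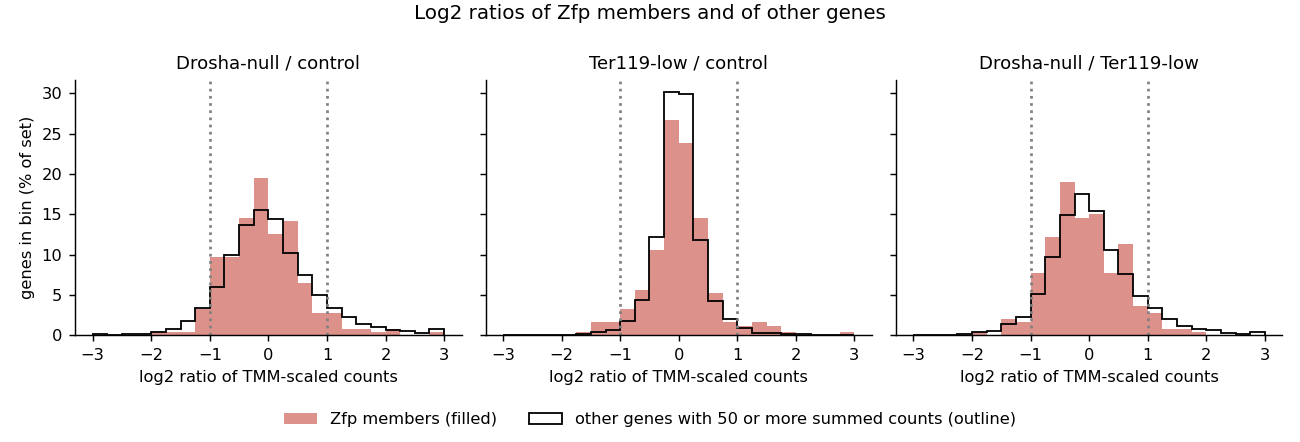
Log2 ratio of TMM-scaled counts (horizontal) for the 247 members (filled) and other genes with 50 or more summed counts (outline), as the percentage of each set in each bin. Values beyond 3 either way are drawn in the outermost bins and dotted lines mark a ratio of 2. In Drosha-null against control the members fill less of the upper tail than the other genes.

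Low counts make large ratios easier to reach, and members are less abundant than most genes, so the calls were also counted in 4 abundance classes of equal size over all genes with 50 or more counts. Of the 122 members in the lowest class (summed counts up to 188), 6.56% were called higher and 6.56% lower, against 21.6% and 10.7% of the 2261 other genes in that class. In the second class, 4.17% of 72 members were called in each direction, against 11.6% higher and 6.94% lower among 2305 others. In the third, 1 of 38 members was called higher and 0 lower, against 6.15% in each direction among 2343 others. None of the 15 members in the highest class was called, against 3.51% higher and 4.23% lower among 2364 others. In each of these classes the share of members called was below that of the other genes, with no test of the difference. The same held for total-count scaling, where 18% of members and 34.3% of other genes in the lowest class were called higher.

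**Figure D3:**
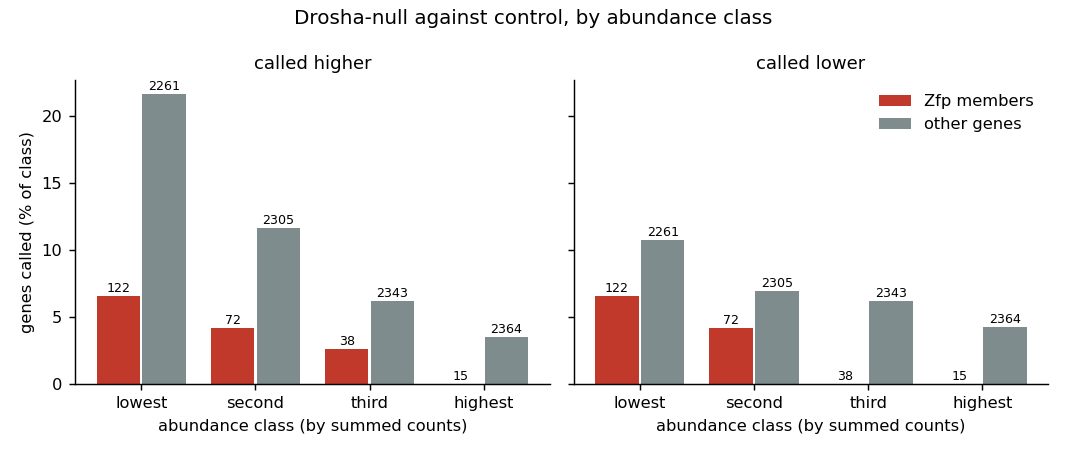
Share of genes called higher (left) and lower (right) in Drosha-null against control, in percent of each abundance class, with the number of genes over each bar. Zfp members have the shorter bar in every class, and no bar where none was called.

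Gene length ran along with the ratios in this comparison. Among genes with 50 or more counts, again in 4 classes of equal size, the members in the shortest class of gene length had a median log2 ratio of −0.79 (n = 11) and the other genes there −0.39. In the second class the medians were −0.13 (68 members) and −0.07. In the third they were −0.14 (101 members) and 0.04, and in the longest 0.06 (67 members) and 0.23. Members lay below other genes in each class, with no test of the difference. The medians of the other genes increased with length, and the 11 members of the shortest class had the lowest value of any class.

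The members higher in Drosha-null cells included transcription factors known from other tissues. Zfp516, a transcription factor of brown fat development, had 171 counts in Drosha-null, 55 in Ter119-low and 33 in control cells. Its log2 ratio in Drosha-null against control was 1.95 (1.42 to 2.55), and the Ter119-low library lay between the other libraries. Zfp238, now named Zbtb18 and known as the repressor RP58 of the developing brain and of muscle, had 284 counts in Drosha-null against 74 in Ter119-low and 79 in control. Only the Drosha-null library was high, and the log2 ratio to control was 1.43 (1.07 to 1.82).

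Zfp367, whose human counterpart was described as an activator of the fetal globin promoter, had 449, 180 and 161 counts in Drosha-null, Ter119-low and control. That gave the narrowest interval among the members called, at a log2 ratio of 1.07 (0.81 to 1.34), and the interval of Ter119-low against control included 1. Zfp362 had 218, 84 and 70 counts in the same order, a log2 ratio of 1.22 (0.84 to 1.64). Here too the Drosha-null library alone was high.

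The other 8 members called higher rested on few reads, with 59 counts or fewer in every library. Zfp612 had 59, 28 and 14 counts in Drosha-null, Ter119-low and control, Zfp248 had 48, 19 and 8, and Zfp128 had 41, 19 and 7. These 3 descended in the same order across the libraries. Zfp599 and Zfp446 were instead alike in both libraries from Cre-carrying embryos, at 51, 51 and 18 counts and at 38, 32 and 9 counts. Zfp689 (47, 16 and 14 counts) and Zfp386 (44, 17 and 15 counts) were high in Drosha-null alone. Zfp449, on the X chromosome and encoding a SCAN-domain protein in human, had 40 and 21 counts in Drosha-null and Ter119-low but 1 in control. It passed the limit of 50 through the Cre-carrying libraries, so its difference follows in part from how members were chosen. The ratio of its scaled counts in Drosha-null to control was 30.2, with a counting interval from 5.11 to 1221. Without their Drosha-null counts Zfp612, Zfp248, Zfp128, Zfp446, Zfp689 and Zfp386 also fell below 50, so the same limit holds for them.

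**Figure D4:**
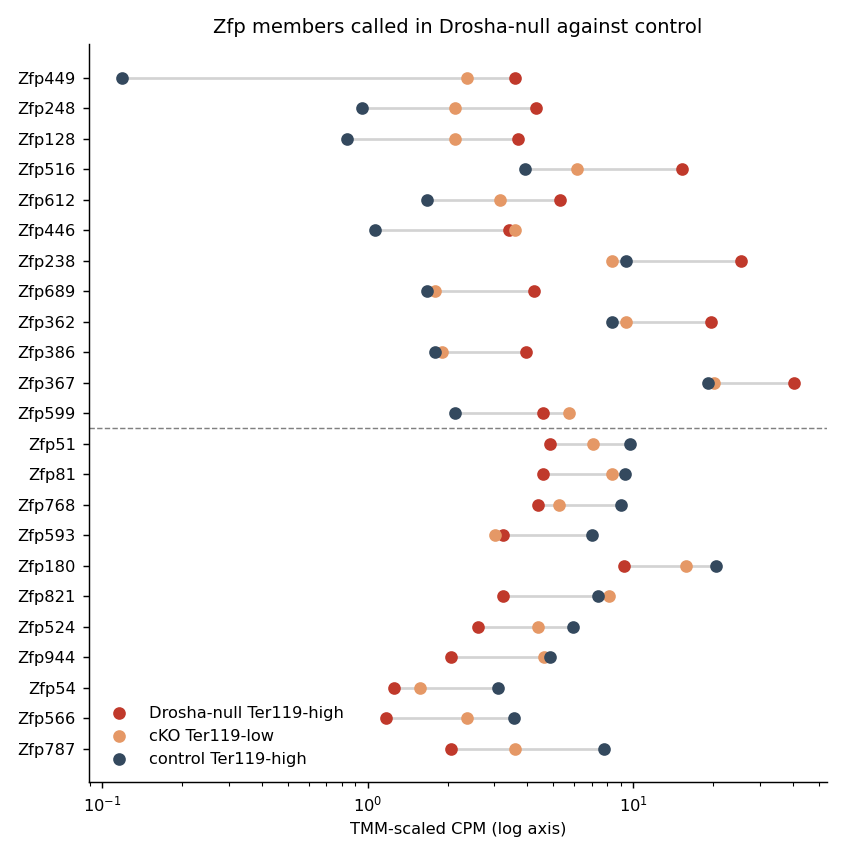
TMM-scaled CPM (log axis) of the 23 members called in Drosha-null against control, 1 point for each library, ordered by ratio with those called higher above the dashed line. For Zfp238, Zfp362, Zfp367, Zfp386 and Zfp689 the Ter119-low point lies beside the control point, while for Zfp446 and Zfp599 it lies beside or beyond the Drosha-null point.

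Among the members lower in Drosha-null cells, Zfp787 was the furthest from control. It had 23 counts in Drosha-null, 32 in Ter119-low and 65 in control cells, a log2 ratio of −1.89 in Drosha-null against control (−2.66 to −1.20). Both libraries from Cre-carrying embryos were below control. Zfp180 had more reads, 103, 141 and 172, and a log2 ratio of −1.14 (−1.51 to −0.79), with Ter119-low between the others. Zfp593, a protein whose yeast and human counterparts act in assembly of the large ribosomal subunit, had 36, 27 and 59 counts. Its log2 ratio was −1.11 (−1.76 to −0.50), and Ter119-low was as low as Drosha-null.

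Zfp821, with 36, 72 and 62 counts, and Zfp944, with 23, 41 and 41, were low in Drosha-null alone. The others were Zfp566 (13, 21 and 30 counts), Zfp54 (14, 14 and 26), Zfp524 (29, 39 and 50), Zfp768 (49, 47 and 76), Zfp81 (51, 74 and 78) and Zfp51 (54, 63 and 82). Zfp51 and Zfp944 have fractional counts. Without their control counts Zfp566 and Zfp54 fell below 50, so their differences follow in part from how members were chosen. Under total-count scaling 9 of these 11 members no longer reached a ratio of 2, the exceptions being Zfp787 at a log2 ratio of −1.45 and Zfp566 at −1.15.

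Some abundant members differed by less than a ratio of 2 with intervals that excluded 1. Zfp106, an RNA-binding protein needed to maintain mouse motor neurons, had 1223 counts in Drosha-null, 1604 in Ter119-low and 1533 in control, a log2 ratio of −0.73 to control (−0.84 to −0.62). Zfp330, a nucleolar protein, had 243, 335 and 317 counts and a log2 ratio of −0.79 (−1.04 to −0.55). Zfp414 and Zfp664 gave −0.81 and −0.70. In the other direction Zfp217, a partner of the CoREST and CtBP corepressors, had 144, 90 and 62 counts and a log2 ratio of 0.80 (0.37 to 1.26), and Zfp704 had 662, 450 and 344 counts and 0.54 (0.35 to 0.73). Over the members, the interval lay above 1 in 43 and below 1 in 59 at any size of ratio, against 2756 and 3074 of the 9273 other genes.

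In Ter119-low against control the members lay closer to 0 than in Drosha-null against control. Their median log2 ratio was 0.00, as for the other genes, and 76.1% of members lay within 0.5 of 0, against 84.1% of other genes. In Ter119-low cells 10 members (4.05%) were called higher and 10 (4.05%) lower, against 1.76% higher and 1.5% lower among the 9243 other genes tested here. All 20 lay in the lowest abundance class. They were 8.2% of that class's members in each direction, against 5.83% higher and 5.65% lower among its 2231 other genes tested, with no test of the difference. With members limited to 200 or more summed counts, 0 were called either way. This comparison uses the same control library as the one above, so a low control count moves both.

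The members higher in Ter119-low cells had between 19 and 51 counts there. Zfp846 had 25 counts in Drosha-null, 36 in Ter119-low and 9 in control, a log2 ratio of 1.86 in Ter119-low against control (0.83 to 3.15). Zfp867 had 12, 36 and 10 counts and Zfp940 had 22, 49 and 19, so for both the Ter119-low library alone was high. Zfp444 had 16, 36 and 16 counts. Zfp446 and Zfp599 had log2 ratios of 1.69 (0.65 to 3.0) and 1.39 (0.62 to 2.28). Zfp128, Zfp382 and Zfp810 gave log2 ratios of 1.29, 1.62 and 1.25, with 7, 7 and 10 control counts, and Zfp449 a ratio of scaled counts of 19.8 (3.19 to 819) over 1 control count. Without their Ter119-low counts all of these members except Zfp599 fell below 50. Their differences therefore follow in part from how members were chosen.

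Lower in Ter119-low cells was Zfp503, a zinc finger corepressor of the developing striatum and limb, with 19 counts in Drosha-null, 10 in Ter119-low and 28 in control. Its log2 ratio in Ter119-low against control was −1.53 (−2.78 to −0.49). Zfp593 and Zfp787, lower in Drosha-null cells too, gave −1.20 (−1.93 to −0.53) and −1.10 (−1.77 to −0.47). Zfp239 had 52, 12 and 26 counts in Drosha-null, Ter119-low and control, so its Ter119-low count was the lowest and its Drosha-null count the highest. The remaining 6, Zfp53, Zfp235, Zfp498, Zfp712, Zfp771 and Zfp935, lay between −1.42 and −1.0. Zfp53 and Zfp935 have fractional counts. Without their control counts Zfp503 and Zfp771 fell below 50, so their differences follow in part from how members were chosen. The same limit may hold for Zfp53, Zfp235, Zfp498, Zfp712 and Zfp935.

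Drosha-null and Ter119-low cells came from embryos of the same genotype and differ in gate and in the Drosha label together. The members' median log2 ratio in Drosha-null against Ter119-low was −0.14, against −0.04 for all genes with 50 or more counts. In Drosha-null cells 10 members (4.05%) were called higher and 11 (4.45%) lower, against 9.03% and 5.04% of the 9273 other genes. Scaling by total counts gave 28 higher (11.3%) and 3 lower (1.21%), against 16.2% and 2.21% of the other genes. The median of all genes tested was then 0.33 in place of −0.02. The 3 still lower were Zfp444, Zfp867 and Zfp940.

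Among members at 5 CPM or more, Zfp238 had the highest lower bound in Drosha-null against Ter119-low, with the counts given above and a log2 ratio of 1.61 (1.24 to 2.01). Zfp532, which works with the Zmynd8 chromatin reader in human cells, had 84 counts in Drosha-null, 22 in Ter119-low and 37 in control, a log2 ratio of 1.59 in Drosha-null against Ter119-low (0.92 to 2.36). Its partners in that complex, Zfp592 and Zfp687, had log2 ratios of −0.21 and 0.35, under a ratio of 2. Zfp516, Zfp362, Zfp386 and Zfp689 gave 1.30, 1.05, 1.02 and 1.20. Zfp710 had 58, 17 and 27 counts and a log2 ratio of 1.42 (0.65 to 2.32). Zfp239, Zfp934 and Zfp219 gave 1.75, 1.17 and 1.01, and the counts of Zfp934 are fractional. Without their Drosha-null counts Zfp386, Zfp689, Zfp710, Zfp239 and Zfp219 fell below 50. Their differences therefore follow in part from how members were chosen, and the same may hold for Zfp934.

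The member with most reads among those lower in Drosha-null than in Ter119-low cells was Zfp426, with 137 counts in Drosha-null, 242 in Ter119-low and 192 in control. Its log2 ratio in Drosha-null against Ter119-low was −1.14 (−1.46 to −0.84), and control lay between. Zfp770 had 108, 180 and 150 counts and a log2 ratio of −1.06 (−1.42 to −0.71). Zfp146, a protein made almost wholly of fingers, had 108, 178 and 152 counts and −1.04 (−1.40 to −0.69). In these 3 members the Ter119-low library was the highest. Zfp763 gave −1.33 (−1.95 to −0.76). Zfp867, Zfp444, Zfp940, Zfp821, Zfp286, Zfp944 and Zfp59 lay between −1.87 and −1.0. Without their Ter119-low counts Zfp867, Zfp444, Zfp940 and Zfp286 fell below 50. Their differences therefore follow in part from how members were chosen, and the same may hold for Zfp763 and Zfp59.

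Over the 3 comparisons 47 members were called at least once and 200 never. The Drosha-null library had the highest scaled level in 73 members and the lowest in 111. Matching counts over the other genes are not given here, so these numbers show no trait particular to the members.

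The members were also grouped by role, from lists of proteins with known functions. Of 33 members listed for transcription and chromatin, Zfp367 and Zfp516 were called higher and Zfp768 lower in Drosha-null against control, with a median log2 ratio of −0.05. Those calls were 6.06% higher and 3.03% lower, beside 10.6% and 6.97% of other genes. In Ter119-low against control Zfp503 was called lower and none higher, with a median of −0.05. That was 3.03% lower, beside 1.76% higher and 1.5% lower among other genes. In Drosha-null against Ter119-low Zfp219, Zfp516 and Zfp532 were called higher and none lower, with a median of 0.08. Those were 9.09% higher, beside 9.03% higher and 5.04% lower among other genes, so the share called higher was near that of other genes. Zfp292 and Zfp609 were the most abundant by counts, and their log2 ratios in Drosha-null against control were −0.29 and 0.10. Zfp143, an activator of small nuclear RNA and many other promoters, had 118, 87 and 89 counts in Drosha-null, Ter119-low and control and a log2 ratio of −0.00 to control. Zfp410, which sustains expression of the remodeller Chd4, had 136, 162 and 140 counts and a log2 ratio of −0.45 (−0.80 to −0.10).

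Of 11 members that act on RNA and ribosomes, Zfp593 was called lower and none higher in Drosha-null against control. That was 9.09% lower, beside 10.6% higher and 6.97% lower among other genes. The median was −0.26, against −0.04 for all genes with 50 or more counts. With total-count scaling these medians were 0.17 and 0.40, and no member of the list was called. Zfp36 (tristetraprolin), which marks AU-rich messages for decay, had 72, 85 and 67 counts in Drosha-null, Ter119-low and control, a log2 ratio of −0.30 (−0.80 to 0.20). Zfp598, the ubiquitin ligase that senses collided ribosomes, had 229, 273 and 256 counts and −0.57 (−0.83 to −0.31). Zfp706 went the other way, with 616, 320 and 338 counts and 0.46 (0.26 to 0.65). Zfp451, a SUMO ligase, had 123, 138 and 116 counts and a log2 ratio of −0.32 (−0.70 to 0.06).

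A list of KRAB proteins with known targets held 5 members, of which the KRAB pattern was found in Zfp445, Zfp568, Zfp809 and Zfp932 and not in Zfp708. None of the 5 was called in any comparison with TMM scaling. Zfp568, which represses a placental transcript of Igf2 in mouse, was the most abundant of them, with 913 counts in Drosha-null, 1069 in Ter119-low and 1050 in control. Its log2 ratio in Drosha-null against control was −0.61 (−0.74 to −0.48), so the Drosha-null library alone was lower. Zfp445, which helps to keep genomic imprints, had 391, 369 and 330 counts and a log2 ratio of −0.16 (−0.38 to 0.05). Zfp809, which silences murine leukaemia-type proviruses, had 141, 117 and 117 counts and −0.14 (−0.50 to 0.23). Zfp932 had 66, 81 and 70 counts, and Zfp708 had 34, 14 and 20. With total-count scaling Zfp708 was called higher in Drosha-null against Ter119-low, at a log2 ratio of 1.26, against 0.93 with TMM. Of the 5 members, 2 have fractional counts. All (100%) of the 50-base windows of Zfp708 and 55.51% of those of Zfp932 were also present in another gene, so their values are uncertain. The imprint keeper Zfp57 had 13, 6 and 9 counts and was below the limit.

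The 121 members in which the KRAB pattern was found are called KRAB carriers here. The pattern missed Zfp708 of the list above, so the rest may hold other KRAB proteins. KRAB carriers had a median log2 ratio of −0.08 in Drosha-null against control, with 7 called higher and 5 lower. The 125 members in which the pattern was not found had −0.09, with 5 higher and 6 lower. As shares these were 5.79% higher and 4.13% lower of KRAB carriers and 4% and 4.8% of the rest, against 10.6% and 6.97% of other genes. In Ter119-low against control the medians were 0.08 and −0.02, with 8 higher and 3 lower among KRAB carriers and 2 higher and 7 lower among the rest, or 6.61% and 2.48% against 1.6% and 5.6%, where other genes had 1.76% and 1.5%. In Drosha-null against Ter119-low they were −0.21 and −0.06, with 3 higher and 6 lower among KRAB carriers and 7 higher and 5 lower among the rest, or 2.48% and 4.96% against 5.6% and 4%, where other genes had 9.03% and 5.04%. These differences were not tested. KRAB carriers also had fewer reads, with a median of 143 summed counts against 322 for the rest. Every member called in Ter119-low against control lay in the lowest abundance class, so the split there cannot be told apart from abundance. KRAB carriers made up 0.138% of counts in Drosha-null, 0.121% in Ter119-low and 0.113% in control cells.

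**Figure D5:**
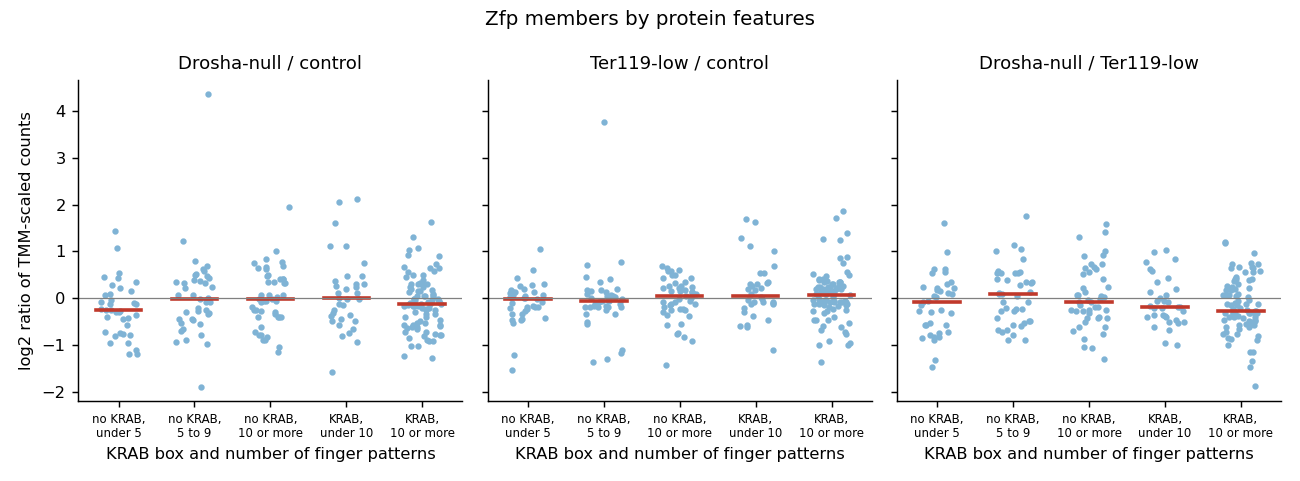
Log2 ratio of TMM-scaled counts for each member, with the median of each group as a red line. Groups are by whether the KRAB box pattern was found (KRAB) or not (no KRAB) and by number of C2H2 finger patterns. Medians in Drosha-null against control run from −0.26 (no KRAB, under 5 fingers, n = 37) to 0.00 (KRAB, under 10 fingers, n = 34), and in Drosha-null against Ter119-low the KRAB group with 10 or more fingers is lowest at −0.27 (n = 87).

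A list of the proteins through which KRAB members act was counted in the same way. Of its 24 genes, 1 (4.17%) was called higher and none lower in Drosha-null against control, beside 10.6% and 6.97% of other genes, with a median log2 ratio of −0.07. That gene was Dnmt3b, a de novo DNA methyltransferase, with 165 counts in Drosha-null, 91 in Ter119-low and 59 in control and a log2 ratio of 1.07. Trim28, the KRAB corepressor, had 1349, 1189 and 1228 counts and a log2 ratio of −0.27, and Setdb1, which methylates histone H3 lysine 9, had 1201, 1079 and 1160 and −0.36. None was called in Ter119-low against control, where 1.76% of other genes were called higher and 1.5% lower. In Drosha-null against Ter119-low, Dnmt3a, the other de novo enzyme, was called higher, with 309, 96 and 122 counts and a log2 ratio of 1.36. That was 1 of 24, beside 9.03% of other genes.

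Genes of related C2H2 families were counted in the same way. Of 26 Zbtb genes with 50 or more counts, 5 (19.2%) were called higher in Drosha-null against control and 0 lower, at a median log2 ratio of 0.08. Over the other genes, of which these families are part, 10.6% were called higher and 6.97% lower. Of 11 Zkscan and Zscan genes, 1 was called lower and 0 higher (median −0.06), and of 15 Zfp genes whose number is followed by a letter, 1 was called higher and 0 lower, with a median of 0.10. The sets were not tested against each other, and some members have since been given Zbtb or Zscan names.

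By position, the 27 members on chromosome 17 had a median log2 ratio of −0.41 in Drosha-null against control, with 0 called higher and 4 (14.8%) lower, beside 10.6% higher and 6.97% lower over the other genes. With total-count scaling that median was 0.03, against 0.40 for all genes with 50 or more counts, with 2 called higher and 0 lower. Those on chromosome 7 had −0.02, with 3 higher (5.26%) and 5 lower (8.77%) among 57. Runs of at least 5 members with no more than 3 other protein-coding genes between neighbours held 57 members in 8 arrays. The chromosome 17 array from Zfp54 to Zfp758 held 10 members with a median of −0.59. Zfp51, Zfp54 and Zfp944 were called lower there, while Zfp948 and Zfp760 had log2 ratios of 0.93 and 0.23. The other chromosome 17 array, from Zfp871 to Zfp563, held 7 with a median of −0.49 and none called. With total-count scaling these medians were −0.15 and −0.06, and the 3 calls were lost.

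The chromosome 7 array of Zfp329, Zfp110, Zfp128, Zfp324 and Zfp446 had the highest median of the 8, at 0.47 in Drosha-null and 1.0 in Ter119-low, each against the same control library. Zfp128 and Zfp446 were called higher in both comparisons. Zfp324 had 70, 81 and 38 counts in Drosha-null, Ter119-low and control, Zfp110 had 160, 123 and 94, and Zfp329 had 167, 121 and 167. Neighbours in an array are related copies and are not independent. The 49 members with fractional counts gave 0 called higher and 2 lower in Drosha-null against control, with a median of −0.12.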

How the data were processed

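Erythroblasts sorted from pooled E10.5 blood were sequenced as 3 libraries, 1 for each group. The deposited tables list an estimated count per gene for each library, FPKM values that the authors computed from these counts and the gene length, and the authors' log2 ratio of FPKM, which was not used for any value. For the aligner, counting program, annotation and genome build, nothing is given in the sources used here. These tables, with 14640 and 14300 genes, share the control column, whose counts were the same in all 13882 genes listed in both, and were joined by gene identifier, with a gene listed in 1 table set to 0 counts in the library of the other. Estimated counts were rounded. Libraries were scaled by TMM (edgeR 4.0.16 in R 4.3.3), with factors of 1.19 for Drosha-null, 0.946 for Ter119-low and 0.885 for control. Log2 ratios used 0.5 added counts. Exact Clopper-Pearson 95% intervals on the ratio cover counting error only. A gene was tested at 1 CPM or more in either library and called at a ratio of 2 or more with an interval excluding 1. The calculation covered all genes and was tested on simulated data.

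A KRAB box was called where a tryptophan and at least 6 of 8 conserved neighbours matched in any protein-coding GENCODE M21 transcript. A finger was a pair of cysteines 2 to 4 residues apart, a loop of 12 residues and a pair of histidines 3 to 5 residues apart, in the longest reading frame. Promoters come from RefSeq.

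Genes named were members of the role lists that were called or most abundant, the 8 highest and 8 lowest members per comparison at 5 or more CPM, the 10 most abundant, those beside the limit, selected markers and corepressors, and Drosha. Other called members were named after their values were seen. The members and lists were chosen with earlier results of these data known. The abundance and length classes, arrays, promoter motifs and shared stretches were chosen after seeing the data.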

Additional observations from a re-analysis of the deposited data

How the results depend on the processing

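With libraries scaled by total counts, Drosha-null against control gave 34 members higher and 2 lower with a median log2 ratio of 0.35, and Drosha-null against Ter119-low gave 28 and 3 with a median of 0.19. In both, the share of members called was below that of the other genes in each direction, as given above. The authors' FPKM, which follow total counts, gave medians of 0.35 and 0.20. Ter119-low against control gave 12 and 8 with total counts. With DESeq2 size factors the counts stayed within 1.5 times of those with TMM in all 3 comparisons, at 13 and 9, 10 and 10, and 13 and 10. Limiting members to 200 or more summed counts left 4 higher and 2 lower in Drosha-null against control, 0 and 0 in Ter119-low against control, and 3 and 3 in Drosha-null against Ter119-low, since fewer genes were counted. Shares of other genes at that limit are not given here, so these counts show no trait particular to the members. A ratio of 1.5 in place of 2 called 27 and 43 members in Drosha-null against control, 15 and 16 in Ter119-low against control and 26 and 38 in Drosha-null against Ter119-low. Over all genes tested it called 1767 and 1715, 409 and 376, and 1638 and 1440 in the same order. Leaving out the fractional members, adding 2 counts or dropping the minimum level kept each count within 1.5 times. Of 165 values for single named members, adding 2 counts took 2 below the call and DESeq2 size factors took 2 above it, while total counts took 11 below and 14 above and turned the sign of 24 uncalled values, and the authors' FPKM turned the sign of 25. No called value changed sign. No paired analysis was possible because each group has 1 library and the labels give no shared replicate numbers. With 1 library in each group no library could be left out.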
